A study of Mus musculus with 6 samples.

Results

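The unfolded protein response and the integrated stress response were read in mouse articular chondrocytes as 33 genes, chosen by symbol: 3 sensors of the endoplasmic reticulum (ER), 12 ER chaperones of the ATF6 type, 3 genes of the XBP1 arm, 6 genes of ER-associated degradation and 9 genes of the ATF4 arm. All 33 symbols were among the 24346 symbols of the deposited table, and 32 passed the filter of a mean of at least 1 FPKM (fragments relative to transcript length and to sequencing depth) over the 6 libraries. Most of the genes that differed after semaphorin 4D (Sema4D) were lower, by small amounts. Chac1 and Herpud1 had the widest differences, at 0.608 and 0.685 times their control means, and Ddit3, Atf5, Trib3, Atf4, Pdia4, Xbp1 and Hspa5 were also lower. Ern1, Hyou1, Canx and Ppp1r15a were higher, each by less than the falls of Chac1 and Herpud1 and none under every scaling of the libraries, while Atf6 and Eif2ak3 did not pass the test.

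The cells were primary articular chondrocytes, the cells that make joint cartilage, from cartilage of ICR mice at postnatal day 4. In 1 group of 3 libraries they had been stimulated with Sema4D, a secreted or membrane-bound ligand of plexin-B receptors, and in the control group of 3 libraries they had not. Total RNA was sequenced. The dose, the duration and the control medium are not given in the sources used here, and the labels do not say whether the replicates came from separate cultures or animals, so that the p-values reflect variation among these libraries alone, and that variation may be technical.

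Proteins bound for secretion fold in the ER, and chondrocytes, which secrete large amounts of collagen and proteoglycan, lean heavily on it. When unfolded proteins build up, IRE1 (Ern1), PERK (Eif2ak3) and ATF6 respond: IRE1 splices the Xbp1 transcript, PERK phosphorylates the initiation factor eIF2, and ATF6 is cut in the Golgi to free a transcription factor. Phosphorylated eIF2 lowers general translation and favours translation of Atf4, and other kinases reach the same step from amino acid shortage, haem shortage or viral RNA, hence the name integrated stress response. FPKM per gene read neither Xbp1 splicing nor the phosphorylation of eIF2 nor the amount of any protein. Genes were placed in arms by textbook roles, and several answer to more than 1 arm, among them Herpud1, which ATF6 and ATF4 both drive.

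The libraries held an estimated 1.34e7 to 1.77e7 fragments, read from the steps of low FPKM values. A multiple of the true depth would also give whole fragment numbers, so the search was capped from above and the estimate depends on that cap. FPKM summed to 518901 to 527492 in the Sema4D libraries and to 492708 to 494123 in the control libraries, and the dependence of the results on this gap is given with them. Libraries of the same group correlated across tested genes at Pearson's r of 0.983 to 0.991, and libraries of different groups at 0.935 to 0.942, where genes are no independent replicates. Chondrocyte markers were high in every library, Col2a1 at 8396 to 9131 FPKM in the Sema4D libraries and 10011 to 10952 FPKM in the control libraries. The 10 markers summed to 11497 to 12444 FPKM with Sema4D and 14329 to 15461 FPKM in control. At a limma adjusted p under 0.05, 9 of the 10 were lower (90%), beside 22.2% of all tested genes. The fibroblast list was also high, at 7714 to 8062 FPKM with Sema4D and 8362 to 8957 FPKM in control. Nearly all of this came from Col1a1, Col1a2 and Col3a1, which many mesenchymal cells express. Of the 6 tested genes of that list 1 was higher and 3 were lower (16.7% and 50%), beside 24.5% and 22.2% of all tested genes. Osteoblast markers summed to 1.33 to 1.79 FPKM with Sema4D and 2.04 to 2.58 FPKM in control, endothelial markers to 0.131 to 0.307 FPKM with Sema4D and 0.0652 to 0.242 FPKM in control. Muscle markers summed to 5.72 to 7.99 FPKM with Sema4D and 9.11 to 10.3 FPKM in control, and macrophage markers, mostly Lyz2, to 20.5 to 23.3 FPKM with Sema4D and 24.2 to 30.7 FPKM in control. In these bulk libraries fewer cells of a type and less RNA per cell cannot be told apart, and the part of these markers in the results on the stress genes was not tested.

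Of the 32 genes tested, 18 (56.2%) passed a limma adjusted p under 0.05, against 46.7% of all 11603 genes tested. Higher with Sema4D were 4 of the 32 (12.5%), against 24.5% of all tested genes, and lower were 14 (43.8%), against 22.2%. The median log2 fold change of the 32 was -0.06, beside 0.01 over all tested genes, and their median absolute change was 0.12, beside 0.15. By the ratio of mean FPKM, 4 of the 18 (Chac1, Herpud1, Ddit3 and Atf5) were lower by over 1.2-fold and 0 were higher by as much, while 14.6% of all tested genes were lower and 15.8% higher by this rule, whose fold was chosen after the values were seen. By arm, the ATF4 genes stood at 1 higher and 7 lower of 9, ER-associated degradation at 0 and 2 of 5 tested, the XBP1 arm at 0 and 2 of 3, the chaperones at 2 and 3 of 12, and the sensors at 1 and 0 of 3. Over all genes 52.4% of the calls were higher with Sema4D, and this share was 38.8% after quantile normalization and 34.5% when each library was rescaled to an equal sum. With those scalings the stress genes stood at 1 higher and 20 lower, and at 0 higher and 19 lower, against 29.4% and 32.8% of all tested genes lower.

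**Figure D1:**
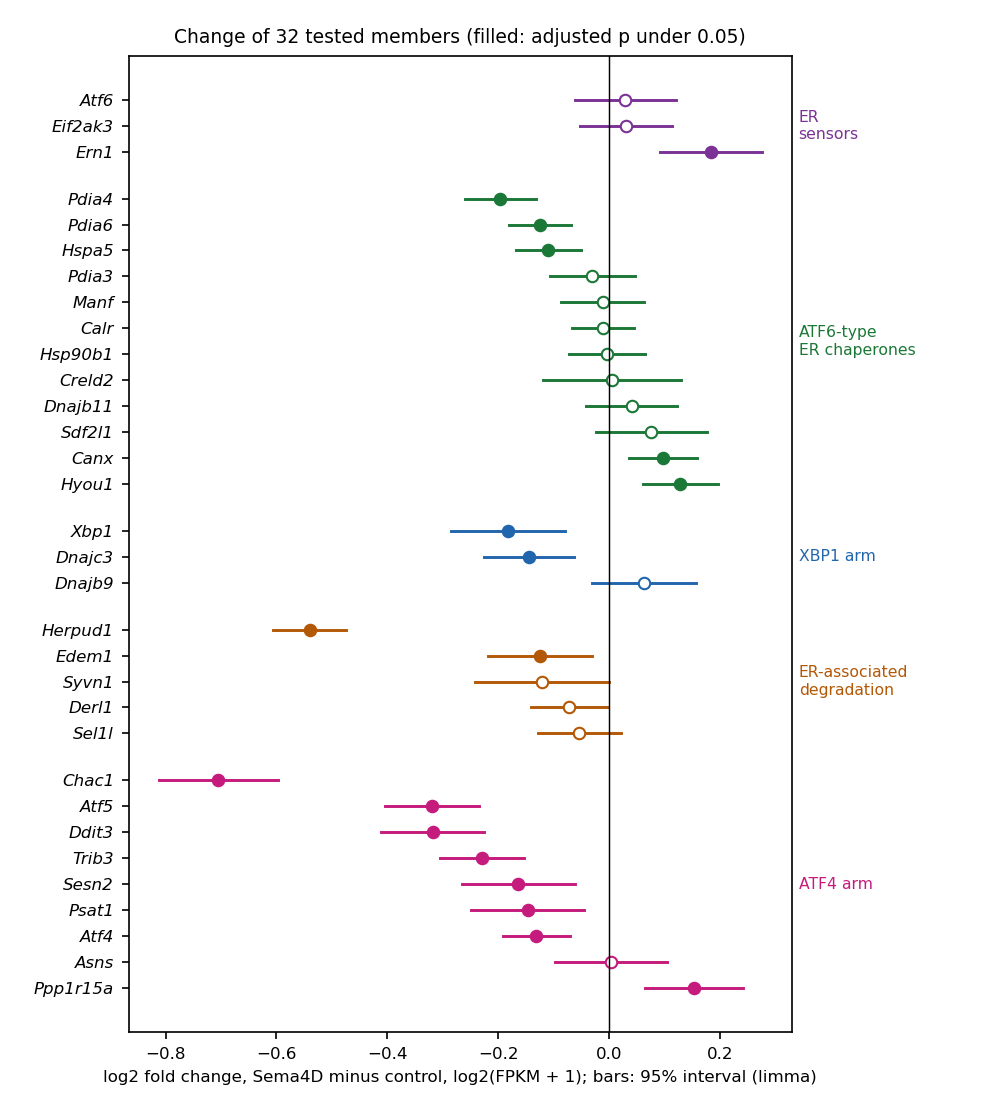
Log2 fold change, Sema4D minus control, on the log2(FPKM + 1) scale for the 32 tested genes by arm, with the limma estimate as a point and its 95% confidence interval as a line. Most points past the threshold lie left of 0, down to -0.70 for Chac1, and the 4 right of 0 reach 0.18 for Ern1; of these Canx moves to -0.02 after quantile normalization.

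Among the sensors, Ern1, which encodes IRE1, had 15.0, 14.4 and 14.7 FPKM in the Sema4D libraries and 12.6, 13.3 and 12.5 FPKM in the control libraries. Every Sema4D library was above every control library (log2 fold change 0.18, SE 0.040, limma adjusted p = 0.00562). When each library was rescaled to an equal sum the adjusted p of Ern1 was 0.0505. Atf6 had 13.5, 13.5 and 12.9 FPKM with Sema4D and 12.9, 12.7 and 13.4 FPKM in control, and the groups overlapped (0.03, 95% interval -0.06 to 0.12, adjusted p = 0.568). Eif2ak3, the PERK gene, had 20.4, 19.6 and 20.2 FPKM with Sema4D and 20.0, 19.6 and 19.2 FPKM in control, again with overlap (0.03, interval -0.05 to 0.11, adjusted p = 0.512). These intervals leave room for changes in either direction smaller than that of Ern1.

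In the ATF4 arm, Atf4 itself (chr15:80255184-80257545 in mm10) was among the most abundant of the 33 transcripts. It had 368, 357 and 353 FPKM in the Sema4D libraries and 397, 394 and 388 FPKM in the control libraries, without overlap (-0.13, SE 0.026, adjusted p = 0.00363). ATF4 protein is set largely by translation, which these values do not read. Atf5, a related factor whose translation is controlled in the same manner, had 251, 239.6 and 259.8 FPKM with Sema4D and 312, 322 and 303 FPKM in control (-0.32, SE 0.037, adjusted p = 0.000164). All 3 Sema4D libraries lay well below the lowest control library. Ddit3 (chr10:127290793-127296291), which encodes CHOP, the factor linked to cell death under prolonged stress, had 199, 198 and 197 FPKM with Sema4D and 232, 260.1 and 249 FPKM in control. The Sema4D libraries were nearly equal, and control replicate 1 was the lowest of a wider control group (-0.32, SE 0.040, adjusted p = 0.000295).

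Trib3, a pseudokinase induced by ATF4 and CHOP that restrains their activity, had 111, 108 and 114 FPKM in the Sema4D libraries and 127, 134 and 131 FPKM in the control libraries (-0.23, SE 0.033, adjusted p = 0.000579). The widest fold difference of the 32 tested genes was in Chac1 (chr2:119351242-119354326), whose enzyme breaks down glutathione and which is among the most responsive ATF4 and CHOP targets. It had 44.0, 43.6 and 46.2 FPKM with Sema4D and 68.6, 74.2 and 77.2 FPKM in control (-0.70, SE 0.047, adjusted p = 5.58e-06). Both Trib3 and Chac1 separated the groups, and the gap in Chac1 was far wider than the spread within either group. Sesn2, a stress-induced inhibitor of mTORC1 signalling, had 31.7, 28.7 and 28.4 FPKM with Sema4D and 33.1, 33.2 and 33.3 FPKM in control (-0.16, SE 0.044, adjusted p = 0.0167). Sema4D replicate 1 stood above the other Sema4D libraries but below all control libraries.

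The amino acid genes of the arm differed less. Psat1, an enzyme of serine synthesis, had 83.5, 90.1 and 81.6 FPKM with Sema4D and 96.1, 90.2 and 96.4 FPKM in control (-0.15, SE 0.044, adjusted p = 0.0260), and Sema4D replicate 2 nearly met control replicate 2. Asns, asparagine synthetase and a classical ATF4 target, had 130.3, 139 and 137 FPKM with Sema4D and 136, 127 and 142 FPKM in control. Its groups overlapped fully (0.00, interval -0.10 to 0.11, adjusted p = 0.943), so that an Asns change as large as that of Chac1 lies outside its interval. Ppp1r15a was the 1 gene of the arm that was higher: it encodes GADD34, the subunit that directs the phosphatase back onto eIF2. It had 56.6, 53.4 and 56.6 FPKM with Sema4D and 48.5, 49.1 and 51.9 FPKM in control, without overlap (0.15, SE 0.038, adjusted p = 0.0112). After rescaling to equal sums its value was 0.07 (adjusted p = 0.147), and after quantile normalization 0.09 (0.0639). The calls of Psat1 and Sesn2 rested on single libraries: without Sema4D replicate 1 or 3 or control replicate 1 or 3 the adjusted p of Psat1 was 0.0786 to 0.0879, and without Sema4D replicate 2 or 3 or control replicate 3 that of Sesn2 was 0.0515 to 0.0580.

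**Figure D2:**
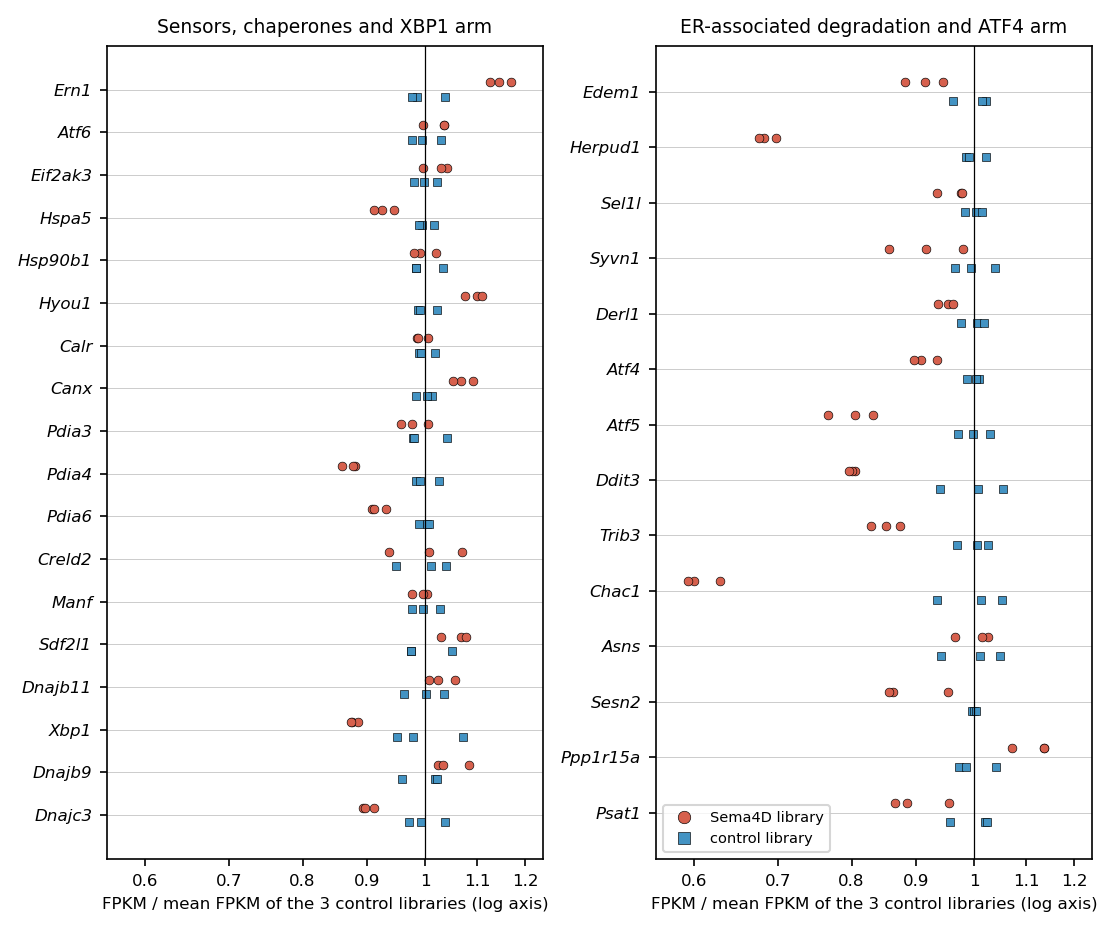
FPKM of each of the 32 tested genes in each library, divided by the gene's mean over the 3 control libraries, on a log axis, with 1 point per library and Sema4D above control in each row. The Sema4D libraries of Chac1 and Herpud1 lie farthest left, around mean ratios of 0.608 and 0.685, and those of Ern1, Hyou1, Canx and Ppp1r15a lie right of their control libraries.

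Some of these genes lie against neighbours that share bases with them in RefSeq, and the strand setting of the counting is not given, so reads in the shared stretch cannot be assigned. Atf5 shares 571 bases with Nup62, a nuclear pore gene that was higher with Sema4D, at 23.4 FPKM with Sema4D and 20.6 FPKM in control (0.18, adjusted p = 0.0211). Ddit3 shares 77 bases with Mbd6, at 23.7 FPKM with Sema4D and 26.8 FPKM in control (-0.18, adjusted p = 0.00485), and 71 bases with the methionyl-tRNA synthetase gene Mars, at 44.7 FPKM with Sema4D and 47.4 FPKM in control (-0.08, adjusted p = 0.0542). Hspa5 shares 1921 bases with Rabepk, which stood at 10.4 FPKM with Sema4D and 10.1 FPKM in control (0.04, adjusted p = 0.645). These neighbours were each at a lower FPKM than the stress gene they adjoin.

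The promoter of Chac1 is shown because the gene had the widest difference and holds a C/EBP-ATF element, the composite site that ATF4 binds with a C/EBP partner. The element was searched as TGATGNAA on both strands of RefSeq promoter windows of GRCm38.p6 (the assembly of mm10), 300 bases each, 250 before and 50 after the gene start. Capitals mark the fixed letters of the element, which reads TTNCATCA where it lies on the opposite strand. Beside Chac1 stand the elements of Trib3 and Asns with 10 bases on either side.
Chac1 promoter (chr2:119350992-119351291, + strand): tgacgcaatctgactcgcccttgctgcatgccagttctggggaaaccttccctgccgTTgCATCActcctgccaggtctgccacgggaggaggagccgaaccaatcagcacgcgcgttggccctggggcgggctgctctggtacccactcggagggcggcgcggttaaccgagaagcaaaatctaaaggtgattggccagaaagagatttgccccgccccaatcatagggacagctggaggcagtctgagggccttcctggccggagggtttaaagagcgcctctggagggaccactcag
Trib3 (chr2:152344029-152344056, - strand): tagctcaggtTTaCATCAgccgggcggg
Asns (chr6:7693215-7693242, - strand): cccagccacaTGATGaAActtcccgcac
Windows were found for 29 of the 33 genes, and none for Atf6, Hyou1, Manf and Derl1. The element was in 4 of the 29 (Chac1, Trib3, Asns and Herpud1), and in 3.97% of all 32851 windows. Of the 4 carriers Chac1, Herpud1 and Trib3 were lower with Sema4D, and Asns did not pass the test. Of 230 tested genes with the element, 23.5% were higher and 28.7% lower, beside 24.6% and 22.1% of the 8826 tested genes with any window. A match is a description of letters, not a site of binding.

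The ATF6-type chaperones carried most of the transcript level of the 33 genes: their FPKM summed to 2430 ± 38.5 with Sema4D and 2493 ± 36.4 in control (SD, n = 3 each), with overlap between libraries. Calr, the lectin chaperone calreticulin, was the most abundant, at 594, 607 and 595 FPKM in the Sema4D libraries and 614, 596 and 599 FPKM in the control libraries (-0.01, interval -0.07 to 0.05, adjusted p = 0.746). Its groups overlapped and its interval leaves little room for change, though both rescalings called it lower. Hspa5 (chr2:34772090-34776529), the central ER chaperone BiP, had 409.6, 419 and 404 FPKM with Sema4D and 450.1, 440.5 and 438 FPKM in control (-0.11, SE 0.026, adjusted p = 0.00854). The highest Sema4D library was below the lowest control library, at a ratio of means of 0.927.

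The protein disulfide isomerases, which form and reshuffle disulfide bonds, were split. Pdia4 had 105, 108 and 107 FPKM with Sema4D and 126, 120.3 and 121 FPKM in control (-0.20, SE 0.028, adjusted p = 0.000594). Pdia6 had 232, 238 and 233 FPKM with Sema4D and 253, 257 and 257 FPKM in control (-0.12, SE 0.024, adjusted p = 0.00349), and neither gene's groups overlapped. Pdia3, the isomerase that works with calreticulin and calnexin, had 315, 331 and 321 FPKM with Sema4D and 343, 322 and 323 FPKM in control, with overlap (-0.03, interval -0.11 to 0.05, adjusted p = 0.498).

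Hyou1 and Canx were higher as deposited. Hyou1, a large chaperone that exchanges nucleotide on BiP, had 63.5, 64.0 and 62.1 FPKM in the Sema4D libraries and 57.0, 57.1 and 59.0 FPKM in the control libraries, without overlap (0.13, SE 0.029, adjusted p = 0.00706). Canx, the membrane-bound lectin chaperone calnexin, had 160, 163 and 158 FPKM with Sema4D and 152, 147 and 150.2 FPKM in control, also without overlap (0.10, SE 0.027, adjusted p = 0.0172). These calls depended on scaling: Hyou1 was at 0.05 (adjusted p = 0.228) after rescaling to equal sums and at 0.06 (0.114) after quantile normalization, and Canx was at 0.02 (0.670) and, with its sign turned, at -0.02 (0.556). Without Sema4D replicate 2 or control replicate 2 the adjusted p of Canx was 0.0618 and 0.0581.

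The other chaperones did not pass the test. Hsp90b1, the ER member of the HSP90 family, had 388, 400.0 and 384 FPKM with Sema4D and 405, 386 and 385 FPKM in control (-0.00, interval -0.07 to 0.07, adjusted p = 0.943). Creld2, Manf, Sdf2l1 and Dnajb11 lay between 13.3 and 60.6 FPKM with Sema4D and between 12.6 and 59.4 FPKM in control, with adjusted p of 0.187 to 0.943. Their groups overlapped in each case, Creld2 being the most variable, at 30.9 to 35.3 FPKM with Sema4D and 31.3 to 34.3 FPKM in control. Creld2, Manf and Sdf2l1 encode small proteins that are typically among the responsive genes of ER stress, and Dnajb11 a co-chaperone of BiP.

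The promoter of Hspa5 is shown as the textbook target of this arm. It holds an ER stress response element (ERSE), the site of ATF6 with the factor NF-Y, searched on both strands as CCAAT, then 9 bases of any kind, then CCACG, and the core TGACGTG of the unfolded protein response element (UPRE), a site of XBP1 and ATF6. Capitals mark the fixed letters of each, and sites on the opposite strand read CGTGG, 9 bases, ATTGG. The ERSE sites of the other carriers follow with 10 bases on either side.
Hspa5 promoter (chr2:34771840-34772139, + strand): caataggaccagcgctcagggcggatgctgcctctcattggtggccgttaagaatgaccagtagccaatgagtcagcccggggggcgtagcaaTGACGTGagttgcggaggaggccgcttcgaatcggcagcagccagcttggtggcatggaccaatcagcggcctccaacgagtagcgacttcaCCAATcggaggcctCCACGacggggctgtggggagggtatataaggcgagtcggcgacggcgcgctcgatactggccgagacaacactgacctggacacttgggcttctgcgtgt
Hsp90b1 (chr10:86705628-86705666, - strand): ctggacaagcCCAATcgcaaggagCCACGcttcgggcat
Hsp90b1 (chr10:86705523-86705561, - strand): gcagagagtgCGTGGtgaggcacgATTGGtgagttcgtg
Calr (chr8:84847065-84847103, - strand): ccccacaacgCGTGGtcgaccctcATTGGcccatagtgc
Canx (chr11:50325790-50325828, - strand): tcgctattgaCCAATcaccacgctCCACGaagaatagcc
Pdia6 (chr12:17266481-17266519, + strand): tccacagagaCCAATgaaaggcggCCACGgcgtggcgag
Creld2 (chr15:88819510-88819548, + strand): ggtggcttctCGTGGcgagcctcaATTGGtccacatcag
Dnajc3 (chr14:118937817-118937855, + strand): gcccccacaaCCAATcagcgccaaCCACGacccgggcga
Syvn1 (chr19:6046522-6046560, + strand): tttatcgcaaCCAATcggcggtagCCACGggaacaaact
Derl3 (chr10:75893232-75893270, + strand): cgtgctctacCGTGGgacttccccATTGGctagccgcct
The ERSE was in 9 of the 29 genes with a window (Hspa5, Hsp90b1 with 2 sites, Calr, Canx, Pdia6, Creld2, Dnajc3, Syvn1 and Derl3), and in 0.119% of all windows, 39 of 32851. The UPRE core was in Hspa5 and in 2.01% of all windows. Of the 9 carriers, Hspa5, Pdia6 and Dnajc3 were lower with Sema4D and Canx was higher as deposited. Hsp90b1, Calr, Creld2 and Syvn1 did not pass the test, and Derl3 was under the filter, so the calls were not all in 1 direction. Over the whole series 14.3% of the 14 tested genes with an ERSE were higher and 28.6% lower. These 14 include the tested carriers above, so their shares are no background apart from them. Of the 298 tested genes with the UPRE core 26.5% were higher and 23.2% lower. Among the 8826 tested genes with any window 24.6% were higher and 22.1% lower.

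In the XBP1 arm, Xbp1 (chr11:5520641-5525993), the transcript that IRE1 splices into the message of an active factor, was lower. It had 53.4, 54.0 and 53.3 FPKM in the Sema4D libraries and 65.3, 57.9 and 59.7 FPKM in the control libraries (-0.18, SE 0.045, adjusted p = 0.0103). The Sema4D libraries were close to each other and below all control libraries, of which control replicate 1 was the highest. Dnajc3, whose product P58IPK is a co-chaperone of BiP, had 25.4, 25.5 and 25.9 FPKM with Sema4D and 28.2, 29.4 and 27.6 FPKM in control, without overlap (-0.14, SE 0.035, adjusted p = 0.0104). Dnajb9, the BiP co-chaperone ERdj4 that returns IRE1 to its inactive state, had 21.2, 21.4 and 22.4 FPKM with Sema4D and 21.1, 19.8 and 21.1 FPKM in control. Its groups did not overlap, by a narrow margin, but it did not pass the test (0.06, interval -0.03 to 0.16, adjusted p = 0.235).

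ER-associated degradation, which draws misfolded proteins out of the ER to the proteasome, held the second widest difference. Herpud1 (chr8:94386429-94395371), a membrane protein that organises the degradation complex, had 69.7, 68.1 and 67.5 FPKM in the Sema4D libraries and 98.6, 99.1 and 102 FPKM in the control libraries (-0.54, SE 0.029, adjusted p = 1.45e-06). No Sema4D library came near the control libraries, and the share of Herpud1 in the summed FPKM of the 6 genes was 32.9% with Sema4D and 40.2% in control. Edem1, which hands over glycoproteins for degradation, had 19.8, 21.2 and 20.6 FPKM with Sema4D and 23.0, 21.6 and 22.8 FPKM in control (-0.12, adjusted p = 0.0365). Its groups lay close, and without Sema4D replicate 1 or 3 or control replicate 1 or 3 the adjusted p was 0.0768 to 0.119.

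The core of the degradation complex differed less than Herpud1. Sel1l, the scaffold, had 38.2, 40.0 and 40.0 FPKM with Sema4D and 40.2, 41.0 and 41.5 FPKM in control (-0.05, adjusted p = 0.216). Syvn1, the ubiquitin ligase HRD1, had 27.0, 25.2 and 28.9 FPKM with Sema4D and 28.5, 29.3 and 30.6 FPKM in control (-0.12, adjusted p = 0.0924). Derl1, a channel component, had 52.8, 51.8 and 53.3 FPKM with Sema4D and 54.0, 55.7 and 56.4 FPKM in control (-0.07, adjusted p = 0.0854). Sel1l and Derl1 did not overlap between groups and Syvn1 did, and none of the 3 passed the test as deposited, while all 3 were called lower under both rescalings. Derl3, a related gene that is normally low outside secretory tissues, was under the filter, at 0.198, 0.159 and 0.234 FPKM with Sema4D and 0.987, 0.458 and 0.583 FPKM in control. It entered the test only in the fit without a filter, where 3 genes of the list were lower in place of 2.

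The promoter of Herpud1 is printed because it carries elements of both arms that drive it. An ERSE-II, searched on both strands as ATTGG, 1 base of any kind and CCACG, shares CCACG with the ERSE, and a C/EBP-ATF element lies upstream of it on the opposite strand. Capitals mark the fixed letters of both, and the ERSE-II of Dnajb11 is given for comparison.
Herpud1 promoter (chr8:94386179-94386478, + strand): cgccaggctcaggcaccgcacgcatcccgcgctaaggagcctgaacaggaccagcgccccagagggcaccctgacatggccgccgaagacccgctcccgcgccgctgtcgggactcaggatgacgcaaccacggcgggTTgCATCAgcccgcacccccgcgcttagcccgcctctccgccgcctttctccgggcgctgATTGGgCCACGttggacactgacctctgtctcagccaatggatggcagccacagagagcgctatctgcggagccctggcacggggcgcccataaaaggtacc
Dnajb11 (chr16:22857842-22857872, + strand): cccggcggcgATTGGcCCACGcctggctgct
The ERSE-II was in Herpud1 and Dnajb11 among the 29 genes, and in 12 of all 32851 windows (0.0365%). Herpud1 was lower with Sema4D, and Dnajb11 had 57.8, 60.6 and 58.8 FPKM with Sema4D and 55.3, 57.5 and 59.4 FPKM in control (0.04, adjusted p = 0.381). Of the 8 tested genes with an ERSE-II, Herpud1 and Dnajb11 among them, 25% were higher and 25% lower.

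Ratios within a library do not depend on a factor that scales the whole library, such as its sum, though quantile normalization would change them, and were formed after the values were seen. The summed FPKM of the 9 ATF4 genes was 1269 ± 9.87 with Sema4D and 1469 ± 17 in control (SD, n = 3 each). Divided by the chaperone sum it was 0.530, 0.508 and 0.529 in the Sema4D libraries and 0.572, 0.602 and 0.594 in the control libraries, without overlap. This ratio of sums is carried by Atf4, Atf5 and Ddit3, the most abundant of the 9, and does not speak for Asns or Ppp1r15a. Within the arm, Chac1 per Atf4 was 0.120, 0.122 and 0.131 with Sema4D and 0.173, 0.188 and 0.199 in control, and Ddit3 per Atf4 was 0.540, 0.553 and 0.557 with Sema4D and 0.584, 0.659 and 0.640 in control. Both targets were lower relative to Atf4, in every library, and Ddit3 less so than Chac1.

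Other pairs were set side by side in the same manner. Ppp1r15a per Ddit3 was 0.285, 0.270 and 0.288 in the Sema4D libraries and 0.209, 0.189 and 0.209 in the control libraries, and Chac1 per Asns was 0.338, 0.315 and 0.337 with Sema4D and 0.503, 0.584 and 0.545 in control. In each pair all libraries of a group lay on the same side, although both genes of a pair belong to the ATF4 arm. For Ppp1r15a per Ddit3 this follows from the genes themselves, as Ppp1r15a was higher and Ddit3 lower, each without overlap. For Chac1 per Asns it follows from Chac1, which was lower by a wide gap, while the groups of Asns overlapped. Neither ratio adds to what the single genes show. Herpud1 per Hspa5 was 0.170, 0.163 and 0.167 with Sema4D and 0.219, 0.225 and 0.233 in control. Xbp1 per Ern1 was 3.56, 3.74 and 3.63 with Sema4D and 5.17, 4.36 and 4.76 in control, the widest control spread of these ratios. Its separation likewise follows from Xbp1 being lower and Ern1 higher, each without overlap.

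**Figure D3:**
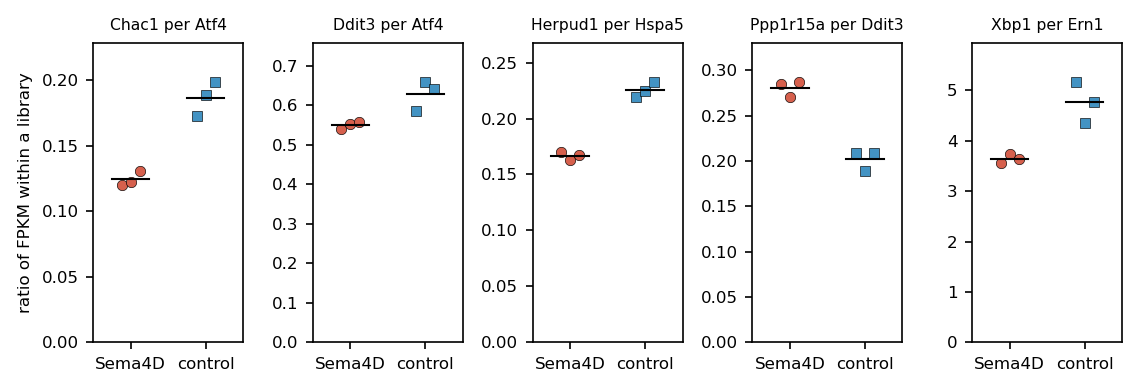
Ratios of FPKM of 5 gene pairs within each library, with 1 point per library, a line at the group mean and Sema4D left of control. The groups do not overlap in any panel, for example 0.120 to 0.131 with Sema4D and 0.173 to 0.199 in control for Chac1 per Atf4. The pairs were formed after the values were seen. In Ppp1r15a per Ddit3 and Xbp1 per Ern1 the genes differed in opposite directions without overlap, so the separation follows from the genes themselves.

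The direction of most calls held when scaling, filter, pseudocount or libraries were changed. Of the 18 genes past the threshold, 11 kept their call under all 12 alternatives: Hspa5, Pdia4, Pdia6, Xbp1, Dnajc3, Herpud1, Atf4, Atf5, Ddit3, Trib3 and Chac1, all lower with Sema4D. The 4 higher calls were the ones that scaling touched: 0 of them remained after rescaling to equal sums, and Ern1 alone remained after quantile normalization. Calr, Pdia3, Sel1l, Syvn1 and Derl1 were called lower under both scalings and Hsp90b1 under quantile normalization.

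**Figure D4:**
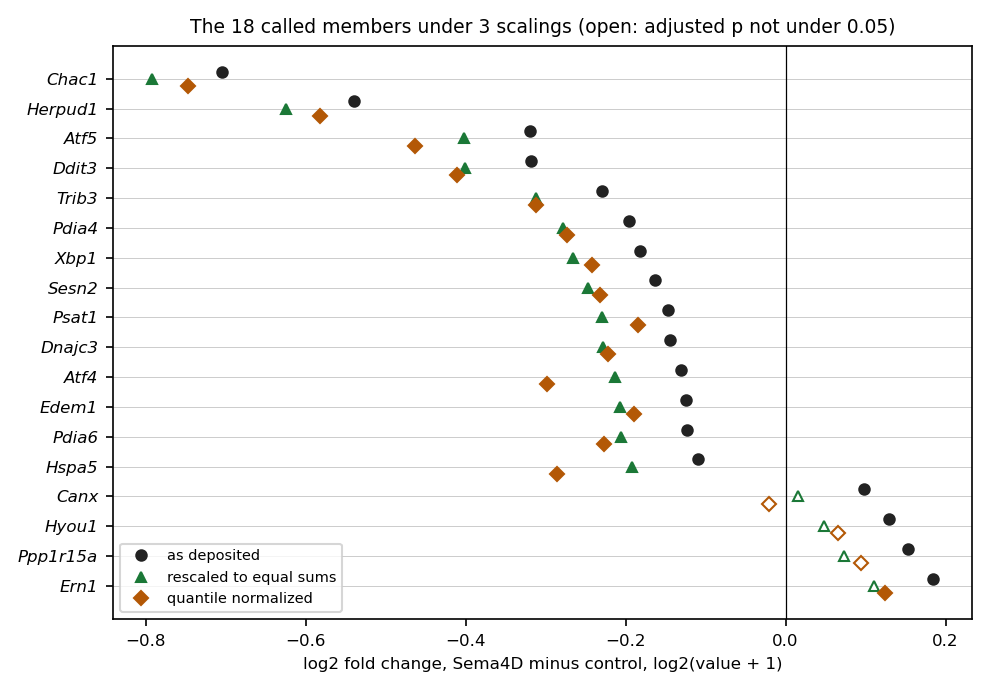
Log2 fold change, Sema4D minus control, of the 18 genes past the threshold, as deposited (circles), after rescaling each library to an equal sum (triangles) and after quantile normalization (diamonds), with open symbols where the adjusted p was not under 0.05. Both rescalings move the genes to the left, the 14 lower genes stay lower, and Canx crosses 0 after quantile normalization, at -0.02. The median over all tested genes also moved left, from 0.01 as deposited to -0.05 after quantile normalization and -0.07 after rescaling to equal sums.

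Further genes of these pathways were read from 11 lists with 193 tested members, of which 45 were higher and 70 lower (23.3% and 36.3%, beside 24.5% and 22.2% of all tested genes). Among 28 other ATF4 targets, 9 were higher and 11 lower, with a median of 0.00. The mitochondrial folate enzymes were opposed: Mthfd1l had 54.0 ± 1.18 FPKM with Sema4D and 32.6 ± 1.095 FPKM in control (0.71, adjusted p = 9.92e-07), and Shmt2 had 186.6 ± 1.21 FPKM with Sema4D and 144.5 ± 0.596 FPKM in control (0.37). Aldh1l2 of the same pathway was lower, at 64.6 ± 1.89 FPKM with Sema4D and 91.3 ± 0.952 FPKM in control (-0.49, adjusted p = 3.72e-06). Mthfd2, also of this pathway and named after its value was seen, was lower by less. It had 68.4 ± 2.83 FPKM with Sema4D and 76.7 ± 2.79 FPKM in control (-0.16, adjusted p = 0.0108). Among the list's other genes, named after their values were seen, the stress hormone gene Fgf21 was lower, at 7.72 ± 0.822 FPKM with Sema4D and 19.8 ± 2.48 FPKM in control (-1.25, adjusted p = 1.52e-05), as were the amino acid transporter Slc7a5 (-0.49) and the proline enzyme Pycr1 (-0.61). The transcription factor Atf3 was higher, at 19.02 ± 0.199 FPKM with Sema4D and 10.01 ± 0.843 FPKM in control (0.86, adjusted p = 4.96e-06), as were the cystine transporter Slc7a11 (0.73) and the secreted glycoprotein Stc2 (0.70). The ATF4 targets outside the 9 thus had no common direction.

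Upstream and beside ATF4, the list of eIF2 kinases, eIF2B and the eIF2 phosphatase stood at 3 higher and 2 lower of 11. These were 27.3% and 18.2%, near the 24.5% and 22.2% of all tested genes. The lower were Eif2b4 (-0.15) and Ppp1ca (-0.10), named after their values were seen. Those lower calls rested on single libraries: 0 remained without Sema4D replicate 1 or 3 or control replicate 2 or 3, and 1 without Sema4D replicate 2 or control replicate 1. Ppp1r15b, the constitutively expressed counterpart of GADD34, had 28.2 ± 0.505 FPKM with Sema4D and 19.6 ± 0.0972 FPKM in control (0.50, adjusted p = 4.42e-06). The eIF2 alpha subunit gene Eif2s1 (0.22, adjusted p = 0.00229) and Eif2ak2, the kinase PKR that responds to double-stranded RNA (0.48, adjusted p = 0.00387), were also higher. The regulatory subunits Ppp1r15a and Ppp1r15b were thus higher as deposited, Ppp1r15a not under either rescaling, while the catalytic Ppp1ca was lower (adjusted p = 0.0297). Cytosolic aminoacyl-tRNA synthetases, many of them ATF4 targets, stood at 2 higher and 6 lower of 16 (12.5% and 37.5%). Under either rescaling they stood at 0 higher and 11 lower. Of all tested genes 29.4% were lower after quantile normalization and 32.8% after rescaling to equal sums. The 2 higher as deposited, named after their values were seen, were Hars (0.09) and Rars (0.14), and without Sema4D replicate 1 or 2 or control replicate 2 or 3 the count was 0, and without control replicate 1 it was 1. Gars had 140.2 ± 2.01 FPKM with Sema4D and 175 ± 3.66 FPKM in control (-0.32, adjusted p = 2.67e-05), and Eprs (-0.19) and Iars (-0.15) were lower.

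The 3 tested ER-resident factors of the OASIS family, processed in the Golgi like ATF6, were lower. Creb3l2, required for secretion in chondrocytes of the mouse, had 28.4 ± 0.800 FPKM with Sema4D and 40.8 ± 0.741 FPKM in control (-0.51, adjusted p = 6.04e-06). Creb3l1 (-0.28, adjusted p = 0.000295) and Creb3 (-0.30, adjusted p = 0.00141) completed the 3 lower of 6 tested, and Atf6b, the paralog of Atf6, named after its value was seen, was higher (0.20), though not when libraries were rescaled to equal sums. ER-Golgi transport stood at 3 higher and 14 lower of 22 (13.6% and 63.6%), with a median of -0.17. Under either rescaling it stood at 1 higher and 16 lower. Its named genes were the receptor Kdelr3, which returns ER proteins from the Golgi (-0.28, adjusted p = 5.16e-05), the COPII coat gene Sec31a (-0.26, adjusted p = 7.21e-05) and the COPI coat gene Copb2 (-0.26, adjusted p = 0.000114). ER entry and signal peptide processing stood at 1 higher and 12 lower of 29 (3.45% and 41.4%). It stood at 0 and 18 after quantile normalization and at 0 and 20 after rescaling to equal sums. Beside these lists, 24.5% of all tested genes were higher and 22.2% lower as deposited. Those shares were 18.7% and 29.4% after quantile normalization, and 17.3% and 32.8% after rescaling to equal sums. Sec62 (-0.35, adjusted p = 2.62e-05), the channel gene Sec61a1 (-0.19) and the oligosaccharyltransferase subunit Ostc (-0.19) were lower. Chondrocyte markers, 9 of 10 lower, moved with these secretory genes, and their part in them was not tested.

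Other ER folding enzymes were mixed, at 7 higher and 10 lower of 26, with 4 higher after quantile normalization. As deposited these were 26.9% and 38.5%, beside 24.5% and 22.2% of all tested genes. Ero1l, the oxidase that drives disulfide formation, had 182 ± 5.07 FPKM with Sema4D and 93.8 ± 3.22 FPKM in control (0.95, adjusted p = 1.53e-07). Fkbp14, a prolyl isomerase of collagen folding (-0.54, adjusted p = 4.43e-06), and Cnpy2 (-0.32, adjusted p = 1.79e-05) were lower. The collagen chaperone Serpinh1, named after its value was seen, had 1059 ± 34.6 FPKM with Sema4D and 1360.2 ± 54.5 FPKM in control (-0.36, adjusted p = 8.39e-05). Other genes of ER-associated degradation stood at 4 higher and 5 lower of 22 (18.2% and 22.7%), and at 3 lower without control replicate 1. Under quantile normalization and equal sums 8 and 9 were lower, beside 29.4% and 32.8% of all tested genes. Vimp was lower (-0.29, adjusted p = 0.000311), while Derl2 (0.24, adjusted p = 0.00117) and the ubiquitin-conjugating enzyme gene Ube2g2 (0.23, adjusted p = 0.00118) were higher.

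Genes linked to cell death downstream of CHOP stood at 4 higher and 0 lower of 6 tested (66.7% and 0%). The shares of all tested genes were 24.5% and 22.2%. The count of higher genes was 2 under either rescaling, and without Sema4D replicate 2 or 3 or control replicate 3. Taking the replicate number as a block also left 2 higher. Ddit3 itself was lower. Casp4, which in mice encodes the inflammatory caspase-11, had 14.5, 16.2 and 16.3 FPKM in the Sema4D libraries and 0.361, 0.511 and 0.580 FPKM in the control libraries. Its control mean was under the filter, so that it entered the test only through the Sema4D libraries, and its place in the count is a description. Casp12, an ER-linked caspase gene (0.44, adjusted p = 0.000112), and the anti-apoptotic Bcl2l1 (0.11, adjusted p = 0.0278) were also higher. Bcl2l1 kept its call under only 4 of 12 alternatives and under neither rescaling, with an adjusted p of up to 0.543. The genes of this list have inducers other than CHOP, and Bcl2l1 opposes death, so the list does not share the role its name gives.

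**Figure D5:**
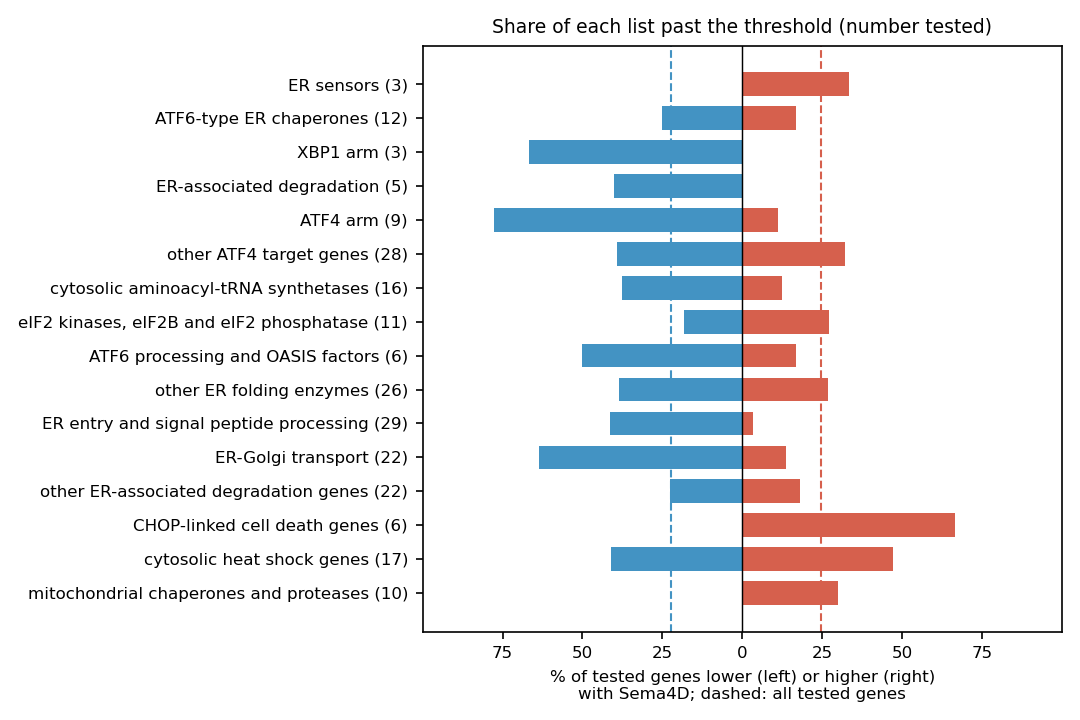
Share of the tested genes of each arm and list, in percent, that was lower (left) or higher (right) with Sema4D, with the number tested in brackets and dashed lines at 22.2% and 24.5% for all tested genes. ATF4 arm genes reach 77.8% lower and ER-Golgi transport genes 63.6%.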

How the data were processed

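The values are FPKM per gene and library, deposited by the authors in 1 table with 6 columns. TopHat2 2.0.13, Bowtie2 2.2.3, SAMtools 0.1.19, Cufflinks 2.2.1 and mm10 are named in the submitters' processing notes. The annotation, strand setting and any scaling across libraries are not given in the sources used here. FPKM are not counts, and 79.7% to 86.0% of low values of long single-transcript genes lay within 0.15 of a whole fragment, too few to recover counts, so no count test was run. In each pair of libraries at most 0.293% of tested genes had identical values, so all 6 libraries were counted.

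Values were taken as log2(FPKM + 1), which understates changes of low genes. Genes averaging at least 1 FPKM over the 6 libraries, 11603 in all, were fitted with limma 3.58.1 (lmFit, then eBayes with a mean-variance trend; two-sided; R 4.3.3), with no block term and with Benjamini-Hochberg adjustment over all of them. The fit was tested on simulated data. Every adjusted p is from limma, and ± is the SD over 3 libraries. Members and lists were chosen with earlier results of these data known. All 33 members were eligible for naming, and from each further list the 3 genes with the smallest p. Alternatives were a pseudocount of 0.1, no filter, a minimum mean of 5 FPKM, quantile normalization, rescaling of each library to an equal sum, the replicate number as a block, and leaving out each library. Positions, promoter windows and gene overlaps are from RefSeq on GRCm38.p6. For 26 of 31 windows of the members, bases after the start matched a GENCODE M21 transcript of the gene on the same strand, and 0 matched the opposite strand. Motifs were searched with Python 3.11.15, and figures were drawn with matplotlib 3.10.9.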

Additional observations from a re-analysis of the deposited data

How the results depend on the processing

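Pseudocount and filter moved none of the counts by arm, nor those of all 33 genes, by over 1.5 times. After quantile normalization the 33 genes stood at 1 higher, with 0 higher and 6 lower among the chaperones, 5 lower in ER-associated degradation, 0 higher in the ATF4 arm and 28 higher in the further lists, against 45 as deposited. Rescaling to equal sums gave 0 higher among the 33, 0 higher sensors, 0 higher and 5 lower chaperones, 5 lower in ER-associated degradation, 0 higher in the ATF4 arm and 28 higher in the further lists. The log2 fold change of Canx turned to -0.021 under quantile normalization, while it was 0.016 after rescaling to equal sums. The cause was not tested. Same-numbered libraries did not all deviate together (r of 0.14, -0.08 and -0.05 across genes), so the numbers were not taken to pair them. Among differently numbered libraries, Sema4D replicate 3 with control replicate 2 (0.14) and Sema4D replicate 2 with control replicate 3 (0.10) were positive. The rest were negative, and a pairing under other numbers was not tested. With a block by replicate number 3 of the 33 genes were higher and 12 lower. The calls of Canx, Edem1 and Psat1 were lost in that fit (adjusted p = 0.0537, 0.0821 and 0.0591). In it 1 chaperone was higher, and 1 gene of ER-associated degradation and 6 of the ATF4 arm were lower. The further lists had 40 higher and 61 lower. Leaving out 1 library gave 2471 to 2635 higher and 2207 to 2327 lower genes in all, 3 to 4 higher and 11 to 14 lower among the 33, 1 to 2 higher chaperones, 1 to 2 lower in ER-associated degradation, 5 to 7 lower in the ATF4 arm, and 37 to 43 higher and 60 to 64 lower in the further lists. Without a filter Derl3 was also tested, and 15 of the 33 genes were lower, 3 of them in ER-associated degradation.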

Other observations

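Chaperones outside the ER were read from a cytosolic and a mitochondrial list. Of 17 tested cytosolic heat shock genes 8 were higher and 7 lower with Sema4D (47.1% and 41.2%, beside 24.5% and 22.2% of all tested genes). Under either rescaling 4 were higher. Of all tested genes 18.7% were higher after quantile normalization and 17.3% after rescaling to equal sums. The count of lower genes rested on single libraries: it was 3 without Sema4D replicate 1 or control replicate 3, and 4 without Sema4D replicate 2 or control replicate 2. The HSP90 co-chaperone Stip1 had 128 ± 2.004 FPKM with Sema4D and 67.7 ± 2.39 FPKM in control (SD, n = 3 each; log2 fold change 0.91, limma adjusted p = 1.44e-07), and the HSP110-type gene Hspa4l was higher at 5.88 ± 0.120 FPKM with Sema4D and 3.07 ± 0.134 FPKM in control (0.76, adjusted p = 7.96e-06). Cryab, a small heat shock protein, was lower at 38.5 ± 0.715 FPKM with Sema4D and 85.3 ± 3.15 FPKM in control (-1.13, adjusted p = 5.72e-08). The other higher genes were Hsp90aa1, Hsp90ab1, Hspa4, Dnaja1, Dnajb1 and Ahsa1, and the other lower ones Hspb1, Hspb8, Bag3, Dnajb4, Hspa1b and Hsph1, named after their values were seen. Hspa1b had a Sema4D mean under 1 FPKM, so that it entered the test only through the control libraries.

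Mitochondrial chaperones and proteases stood at 3 higher and 0 lower of 10, 30% higher beside 24.5% of all tested genes. Under either rescaling 2 were lower. Of all tested genes 29.4% were lower after quantile normalization and 32.8% after rescaling to equal sums. The protease Lonp1 had 112 ± 1.16 FPKM with Sema4D and 91.4 ± 2.10 FPKM in control (0.29, adjusted p = 5.59e-05), and Afg3l2 was higher (0.27, adjusted p = 0.00208). Hspd1, which encodes HSP60, passed narrowly with overlapping groups (0.13, adjusted p = 0.0482). It did not pass without Sema4D replicate 1 or 2 or control replicate 2 or 3, which left 2 higher. Hspd1 kept its call under only 4 of 12 alternatives and under neither rescaling, with an adjusted p of up to 0.401.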
